A study of Arabidopsis thaliana with 12 samples.

Results

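The features described here are those that the authors list as differing between heterozygous swi3b +/- seedlings and the wild type Col-0 and that are in neither of their other lists. There are 361 of them, 356 genes and 5 transposable elements, among 629 features listed for swi3b +/- and 1618 listed in any of the 3 comparisons of the series. They were selected on the comparison that gives their values, so their ratios and q-values are a description and carry no test of their own. The series sequenced rRNA-depleted total RNA of whole Arabidopsis thaliana seedlings, raised in long days to an age of 2 to 3 weeks. The groups used here are swi3b +/-, a heterozygote whose allele the labels do not name, and Col-0, with 3 libraries each. The other comparisons set nrpe1 and idn2-1, also with 3 libraries each, against Col-0. Libraries are labelled as biological replicates, and nothing further says how many plants or sowings they came from. The authors' deposited table gives 1 RPKM value (reads scaled for the length of the transcript and the size of the library) for each genotype, so no value has a replicate spread and the depth is unknown. Whole seedlings were used, and in such bulk samples fewer cells of a type and less RNA per cell cannot be told apart.

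SWI3B is a core subunit of SWI/SNF complexes, which use ATP to slide or evict nucleosomes and so change how readily DNA is read. Plants without any SWI3B arrest as embryos, and heterozygotes keep a functional copy of the gene. SWI3B is known to bind IDN2, an RNA-binding protein that acts with the long transcripts of RNA polymerase V, whose largest subunit is NRPE1. Many of the genes named below come from lists of stress genes, so their number partly reflects that choice. In the rapid response of plants to wounding, microbes, cold and drought, WRKY, ERF and zinc finger transcription factors are switched on early. Jasmonate and defence compounds are also part of such responses.

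SWI3B itself (AT2G33610) is not listed in the authors' deposited table, so its level offers no check of the genotype label. Of 28 markers of leaf, root, flower and seed, 0 were listed for swi3b +/-, so this comparison holds no level with which to check the tissue. All 25877 features that the authors' adjustment covered give the background: 629 were listed (2.43%), 485 as higher (1.87%) and 144 as lower (0.556%). The swi3b-only features make up 57.4% of the listed ones and 1.4% of all features adjusted. That 1.4% is the share to set beside each count of swi3b-only genes from a list or family below. Beside each count of listed genes the share is 2.43%. In these counts, listed means listed for swi3b +/- unless another comparison is named. Of these features, 278 were higher and 83 lower in swi3b +/- than in Col-0. The higher ones were all genes, and the lower ones comprised 78 genes and the 5 elements. Because the same contrast chose them, nothing is read from these counts.

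Most of the changes were about 2-fold. Among features above 0 in both genotypes, the 275 higher ones had a median ratio of 2.07, between 1.56 and 12.8, and the 71 lower ones were lower by a median of 1.85-fold, between 1.55 and 7.32. The higher genes had a median of 12.5 RPKM in swi3b +/- and 5.70 RPKM in Col-0 in the authors' deposited table. The lower features had a median of 10.9 RPKM in swi3b +/- and 21.1 RPKM in Col-0 in that deposited table. The split by direction itself sets part of that difference in Col-0 levels. At least a 2-fold change was found for 176 of the 346 swi3b-only features above 0 in both (50.9%), and for 181 of 263 features that another comparison also listed (68.8%). At least 3-fold changes made up 12.1% of the swi3b-only features and 27.8% of those listed elsewhere too. Being in a list depends on the size of change, and this difference in size was not tested. The proportion that was higher came to 77.0% of the swi3b-only features and 77.2% of the others.

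**Figure D1:**
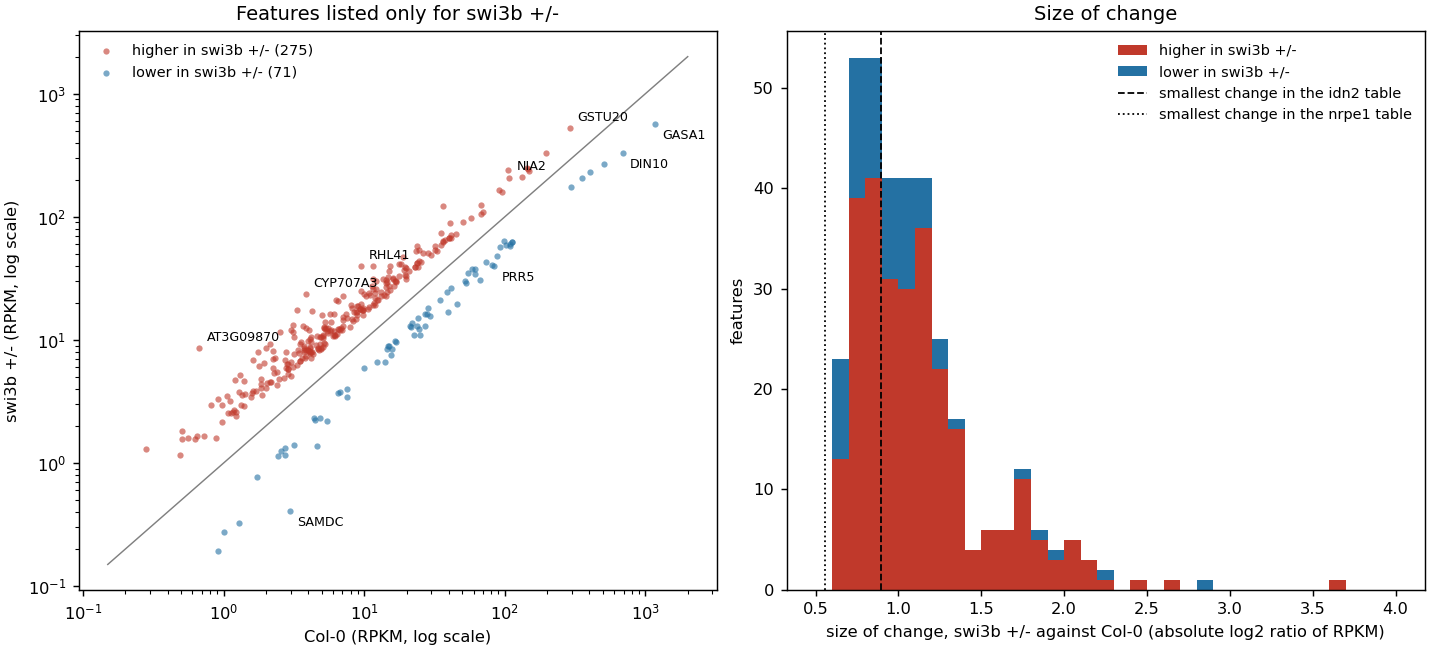
The left panel plots each swi3b-only feature above 0 in both genotypes by its RPKM in swi3b +/- (vertical, log scale) and in Col-0 (horizontal, log scale), with the line of equality in grey; the 275 higher and 71 lower features leave a band around the line empty because only listed features are shown. The right panel counts them by the absolute log2 ratio of swi3b +/- to Col-0, with the smallest change in the idn2 and nrpe1 tables as vertical lines, and 127 of the 346 lie below the idn2 line.

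Absence from the other lists does not show that a gene is unchanged in those mutants. The smallest change that the authors list for idn2-1 is 1.86-fold, against 1.47-fold for nrpe1 and 1.55-fold for swi3b +/-. Of the 346 swi3b-only features, 127 (36.7%) had a ratio below that idn2-1 limit. The nrpe1 and swi3b +/- comparisons share their Col-0 values, which were the same for all 164 features listed in both with a Col-0 value above 0. The features nearest the limit of listing were TTL3, a thioredoxin-like protein with tetratricopeptide repeats, the ubiquitin ligase gene CNI1 and the acyltransferase gene GLC, with deposited q-values of 0.0495, 0.0492 and 0.0488. Just outside the rule were AT5G54710, listed for nrpe1 with a deposited q of 0.0499, and AT5G12110 and the homeobox gene BLH4, listed for idn2-1 with deposited q-values of 0.0499 and 0.0496. Features left out because 1 other comparison also listed them include larger changes, led by AT1G33760 at 17.65-fold higher, MRD1 at 9.05-fold lower and the element AT3TE35255 at 7.35-fold higher in swi3b +/- in the authors' deposited table.

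With 5 RPKM or more required in the higher genotype, the steepest rise in swi3b +/- was that of AT3G09870 (chromosome 3, 3027424 to 3027957), a gene of the SAUR family of small auxin-responsive proteins. The authors' deposited table gives it 8.59 RPKM in swi3b +/- and 0.673 RPKM in Col-0, a 12.8-fold difference (deposited q = 0.00209). CYP707A3 (AT5G45340, chromosome 5, 18368642 to 18370991) encodes an abscisic acid 8'-hydroxylase, which inactivates the hormone, and had 23.7 RPKM in swi3b +/- and 3.83 RPKM in Col-0 in the deposited table (6.18-fold, q = 0 as deposited). RTFL12, which encodes a small peptide of the ROTUNDIFOLIA family, had 17.62 RPKM in swi3b +/- and 3.32 RPKM in Col-0 there, a 5.31-fold difference. These 3 genes had low levels in Col-0, under 4 RPKM each.

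The next largest rises, from 4.57-fold to 3.71-fold, included several regulators of stress responses. ERF11, a repressor of the ethylene response factor family, had 9.23 RPKM in swi3b +/- and 2.12 RPKM in Col-0 in the authors' deposited table (4.35-fold, q = 1.38e-06). RRTF1, a redox-responsive factor of the same family, had 6.81 RPKM in swi3b +/- and 1.62 RPKM in Col-0 there (4.21-fold). ZAT12 (AT5G59820, named RHL41 in the annotation), a zinc finger gene of oxidative and cold stress, had 39.7 RPKM in swi3b +/- and 9.56 RPKM in Col-0 in the deposited table (4.16-fold, q = 1.80e-13). Of the 14 steepest rises the others were TAT3 and BAP1, described below, the MATE transporter gene AT5G52050 at 4.28-fold, and the uncharacterised genes AT1G05575, AT5G17350, AT1G22470, AT1G72240 and AT3G23170 at 3.71-fold to 4.57-fold in the deposited table. Genes without introns were common at the top, and among all higher coding genes 78 of 274 (28.5%) had 1 exon. The same proportion was 12 of 76 (15.8%) for lower coding genes, 31.5% for higher genes that another comparison also listed and 20.5% for all 27444 annotated protein-coding genes.

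Several of the lists used to name genes consist largely of transcription factors, so many of the named genes encode them by that choice. Of 20 WRKY genes, whose products bind the W-box of defence genes, 9 were listed for swi3b +/-. Of these, 6 (30% of the 20) were listed only there, all 6 higher, against 1.4% of all features. The lists were chosen with earlier results of these data known, so such shares carry no test. WRKY46 had 3.33 RPKM in swi3b +/- and 0.919 RPKM in Col-0 in the authors' deposited table, a 3.62-fold difference. WRKY33, needed for defence against necrotrophic fungi, had 24.8 RPKM in swi3b +/- and 9.48 RPKM in Col-0 there (2.62-fold, q = 1.44e-08). WRKY40, WRKY48, WRKY53 and WRKY11 were 2.49-fold, 2.23-fold, 2.15-fold and 2.04-fold higher in the deposited table.

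Ethylene response factors and the related CBF group were represented as well. Of 25 ethylene and ERF genes 8 were listed, and 4 of them (16% of the 25) only for swi3b +/-, 3 higher and 1 lower. ERF6, an activator of oxidative stress and defence genes, had 30.8 RPKM in swi3b +/- and 14.2 RPKM in Col-0 in the authors' deposited table, and its close relative ERF5 had 8.25 RPKM in swi3b +/- and 3.98 RPKM in Col-0. The gene that was lower was EBF2, whose F-box protein marks the ethylene factor EIN3 for breakdown, with 13.0 RPKM in swi3b +/- and 21.1 RPKM in Col-0 in the deposited table. Of 13 CBF, DREB and RAV genes 4 were listed, and 3 (23.1%) only for swi3b +/-: RRTF1, ORA47, an activator of jasmonate synthesis genes, and the cold factor CBF2. ORA47 was 3.25-fold higher, at 22.9 RPKM in swi3b +/- and 7.05 RPKM in Col-0, and CBF2 2.19-fold higher, at 16.2 RPKM in swi3b +/- and 7.40 RPKM in Col-0, in the deposited table. CBF2 lies beside the near-identical CBF1 and CBF3, so its value is uncertain as to which copy it reads.

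Of 17 zinc finger, MYB and NAC genes of stress responses 11 were listed, and 6 (35.3%) only for swi3b +/-, all higher. Besides ZAT12 these were MYB15 (2.61-fold), ZAT6 (2.31-fold), the NAC gene ATAF2 (2.19-fold), MYB51 (2.09-fold) and the CCCH zinc finger gene SZF2 (1.99-fold) in the authors' deposited table. ATAF2 was the most abundant of the 6, with 53.4 RPKM in swi3b +/- and 24.4 RPKM in Col-0 in the deposited table.

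Of 31 immune signalling genes 7 were listed, and 6 (19.4%, against 1.4% of all features) only for swi3b +/-, all higher. The other 24, among them the receptor genes FLS2 and EFR and the kinase gene MPK6, were not listed. RBOHD, the NADPH oxidase that makes the oxidative burst, had 5.89 RPKM in swi3b +/- and 2.23 RPKM in Col-0 in the authors' deposited table (2.64-fold). The kinase genes MKK9 and MPK3 of the mitogen-activated cascade were 1.88-fold and 1.60-fold higher, and MPK3 had 66.7 RPKM in swi3b +/- and 41.8 RPKM in Col-0 there. BAP1 and PUB23, both restraints on defence, were 3.95-fold and 2.98-fold higher in the deposited table. The sixth was MLO12, of a family that powdery mildew needs for entry, at 1.16 RPKM in swi3b +/- and 0.492 RPKM in Col-0 in the deposited table. Activators and restraints of immunity are both among these 6 genes.

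Calcium sensing and hormone signals followed in smaller numbers. Of 20 calcium and touch genes 8 were listed, but only CPK32 and CPK28, which encode calcium-dependent protein kinases, were listed for swi3b +/- alone, at 2.47-fold and 2.20-fold higher in the authors' deposited table. CBP60G, a calmodulin-binding factor that activates salicylic acid synthesis, was the only 1 of 17 salicylic acid genes listed for swi3b +/-, with 7.79 RPKM in swi3b +/- and 3.46 RPKM in Col-0 in the deposited table. BIP2, a chaperone of the endoplasmic reticulum, was the only 1 of 10 heat and chaperone genes listed, at 1.57-fold higher in the deposited table.

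Several genes for intracellular immune receptors were higher, some of them neighbours. By their annotated products, 186 genes encode proteins of the TIR or NBS resistance type. Of these, 18 (9.68%) were listed for swi3b +/- and 8 (4.30%) only there, all 8 higher. The shares of all features were 2.43% and 1.4%. Genes were matched by the wording of the product, so those described otherwise are not counted. ADR1-L2, also higher and listed only for swi3b +/-, was not matched. AT1G72900, AT1G72910 and AT1G72920 are neighbours on chromosome 1 (27432195 to 27439091) and were 1.90-fold, 3.61-fold and 3.44-fold higher in the authors' deposited table. AT5G41740 and AT5G41750 are neighbours on chromosome 5 (16688626 to 16698950) and were 2.08-fold and 2.32-fold higher in the deposited table. Their likeness in sequence makes the split of reads between such neighbours uncertain. ADR1, a helper receptor that passes on signals of other receptors, had 3.47 RPKM in swi3b +/- and 1.56 RPKM in Col-0 in the deposited table.

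Of 29 jasmonate genes 12 were listed for swi3b +/-, and 7 only there (24.1%, against 1.4% of all features), all higher. The other 17 were not listed for it, among them LOX2, LOX3 and JAR1. Of the 7, 5 encode enzymes of synthesis: LOX4, a lipoxygenase, was 3.35-fold higher, AOS, the allene oxide synthase, 1.84-fold, AOC2, an allene oxide cyclase, 1.70-fold, OPR3, the reductase of the peroxisome, 1.68-fold, and OPCL1, a ligase that starts chain shortening, 1.74-fold in the authors' deposited table. AOS was the most abundant, with 125 RPKM in swi3b +/- and 68.2 RPKM in Col-0 in the deposited table. JAZ1, a repressor that the hormone removes and whose gene it induces, had 26.0 RPKM in swi3b +/- and 11.6 RPKM in Col-0 there (2.24-fold). TAT3, a tyrosine aminotransferase induced by jasmonate, had the largest ratio of the 7, with 17.1 RPKM in swi3b +/- and 4.24 RPKM in Col-0 (4.02-fold) in the deposited table. AOC2 has near-identical neighbouring copies, so its value is uncertain.

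Of 23 abscisic acid and osmotic stress genes 6 were listed, and 4 (17.4%, against 1.4% of all features) only for swi3b +/-, all 4 higher. Apart from CYP707A3, which removes abscisic acid, they were the drought-induced caleosin gene RD20 (2.22-fold), the galactinol synthase gene GolS1 (2.08-fold) and P5CS1, the first enzyme of proline synthesis (1.82-fold), in the authors' deposited table. CYP707A2, a second hydroxylase gene for the same hormone, was also higher, at 1.65 RPKM in swi3b +/- and 0.730 RPKM in Col-0 in the deposited table. The other 2 listed genes of the 23, ERD5 and PYL6, went the other way. Listed for idn2-1 as well, they were 4.34-fold and 3.34-fold lower in swi3b +/- there. RD29A, RD29B, RAB18 and NCED3 were not listed.

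**Figure D2:**
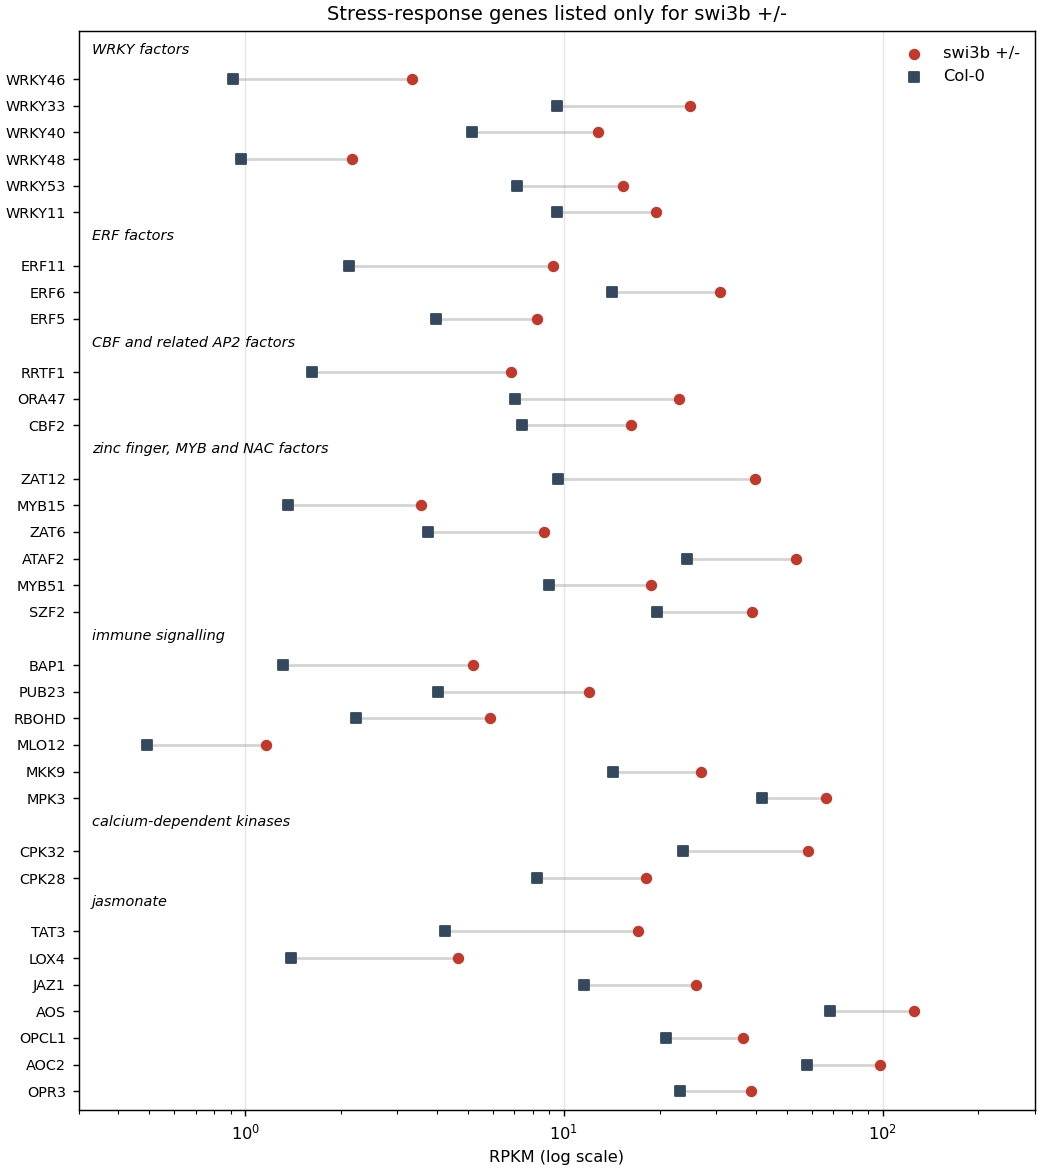
Each row is a swi3b-only gene of the WRKY, ERF, CBF, zinc finger, MYB and NAC, immune signalling, calcium or jasmonate lists, with its RPKM in swi3b +/- (red circle) and in Col-0 (dark square) on a log scale. The 33 genes shown are the higher ones, from 1.60-fold for MPK3 to 4.35-fold for ERF11; EBF2, the 1 lower gene of these lists, and the abscisic acid list with CYP707A3 are not drawn. The points run from 0.492 RPKM for MLO12 in Col-0 to 125 RPKM for AOS in swi3b +/-.

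The promoters of 2 higher genes are shown as examples. Each holds at least 1 W-box, the motif bound by WRKY factors, and a G-box. Other higher genes, among them RD20, PUB23 and AOS, have both motifs near their start as well. Each stretch is the 250 bases before the annotated start in RefSeq TAIR10.1, written 5' to 3' on the strand of the gene, and none overlaps another gene. The stretches lie at chr4:13016236-13016485 (minus strand) for CBF2 and chr5:18371022-18371271 (minus strand) for CYP707A3. Capitals mark the motifs described below them.
CBF2: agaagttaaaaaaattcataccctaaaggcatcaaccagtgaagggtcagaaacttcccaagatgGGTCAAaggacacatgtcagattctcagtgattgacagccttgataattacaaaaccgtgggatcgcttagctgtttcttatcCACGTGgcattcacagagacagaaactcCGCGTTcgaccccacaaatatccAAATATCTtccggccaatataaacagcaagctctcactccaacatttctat
CYP707A3: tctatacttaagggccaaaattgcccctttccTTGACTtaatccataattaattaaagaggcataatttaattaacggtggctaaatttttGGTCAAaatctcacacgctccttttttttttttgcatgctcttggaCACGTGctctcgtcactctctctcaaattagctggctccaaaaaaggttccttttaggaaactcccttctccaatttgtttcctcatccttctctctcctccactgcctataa
The CBF2 stretch holds a W-box read on the other strand (GGTCAA) starting 185 bases before the annotated start, a G-box (CACGTG) at 102, a rapid stress response element (CGCGTT) at 74 and an evening element (AAATATCT) at 51 bases. In that of CYP707A3 there are W-boxes at 218 and 159 bases and a G-box at 113 bases. Both stretches were picked after their motifs were seen.

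These stretches are not typical of the set. In the window of 300 bases, 250 before and 50 after the start, a W-box (TTGACC or TTGACT, either strand) was found for 104 of 274 higher coding genes (38.0%), 24 of 76 lower ones (31.6%) and 8883 of 27443 protein-coding genes in all (32.4%). The rapid stress response element (CGCGTT, either strand) was found for 7.66% of higher genes, 3.95% of lower genes and 3.40% of all. For the G-box (CACGTG) the proportions were 13.5% of higher, 6.58% of lower and 7.68% of all genes. The evening element (AAATATCT, either strand), a motif of clock-regulated promoters, was in 7.66% of higher, 10.5% of lower and 5.65% of all genes, and the GCC box (GCCGCC, either strand), which ERF proteins bind, in 2.55% of higher, 1.32% of lower and 2.57% of all genes. Higher genes that another comparison listed as well had a W-box in 49% and a rapid stress response element in 13.5%. A match to letters is a description and not evidence of binding, and these proportions were not tested.

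**Figure D3:**
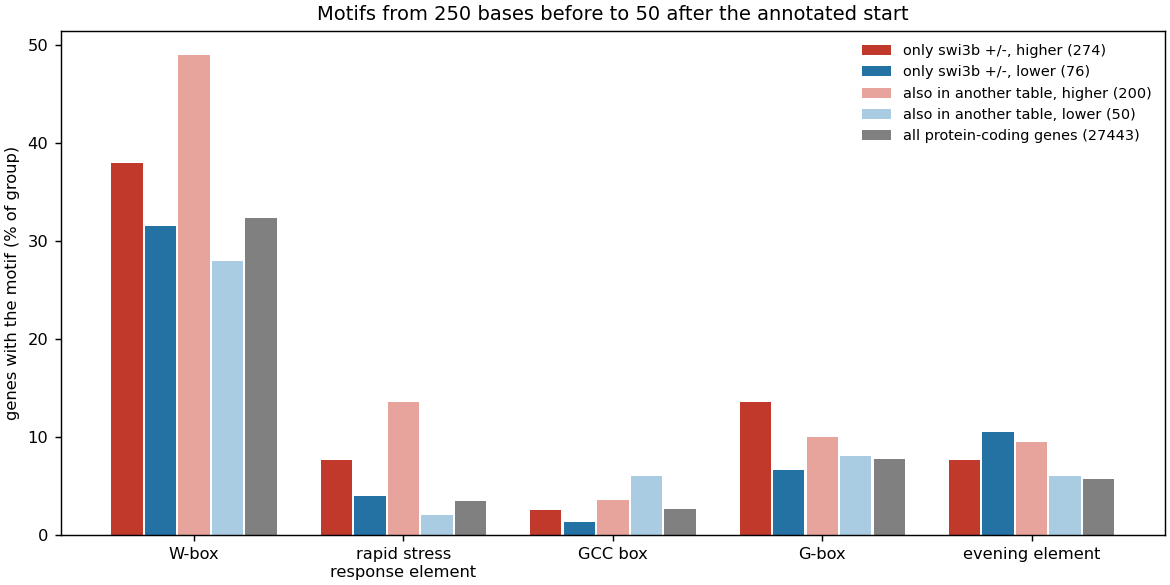
Bars give the percentage of genes with each of 5 motifs on either strand of the window from 250 bases before to 50 bases after the annotated start. Groups are higher and lower genes listed only for swi3b +/-, higher and lower genes also listed for another mutant, and all protein-coding genes; for the W-box, the swi3b-only higher genes (38.0%) lie between all genes (32.4%) and the higher genes listed elsewhere too (49%).

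A number of glucosinolate genes were listed as higher, and none as lower. Glucosinolates are sulphur-rich defence compounds of the cabbage family, made from methionine or tryptophan by chain elongation, formation of a core and modification of the side chain. Of 14 genes in a short list 6 were listed, against 2.43% of all features. Of the 14, 4 (28.6%) were listed only for swi3b +/-, against 1.4% of all features. A longer list of 45 steps was written after these values were seen. It had 24 listed, of which 20 (44.4% of the 45) only for swi3b +/- and 4 also for another mutant. The other 21 were not listed, among them the regulators MYB28 and MYB34 and the core enzyme gene SUR1. All 20 were higher, between 1.59-fold and 4.63-fold, with a median log2 ratio of 1.01.

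The regulators MYB29, for methionine-derived compounds, and MYB51, for tryptophan-derived ones, came to 36.5 and 18.8 RPKM in swi3b +/-, against 14.99 and 8.96 RPKM in Col-0 in the authors' deposited table. In chain elongation, the aminotransferase gene BCAT4, the transporter gene BAT5 and the isomerase subunit gene IPMI1 were 1.86-fold, 1.93-fold and 2.18-fold higher in the deposited table. The entry enzymes to the core are cytochromes P450, and CYP83A1 had 91.3 RPKM in swi3b +/- and 50.4 RPKM in Col-0 there, while CYP79B3 had 20.0 RPKM in swi3b +/- and 11.7 RPKM in Col-0. CYP79F2 had the largest ratio at 4.63-fold, but at 1.30 RPKM in swi3b +/- and 0.281 RPKM in Col-0 in the deposited table it was the least expressed. It is near-identical to its neighbour CYP79F1, which the nrpe1 and idn2-1 comparisons also listed, so its place among the swi3b-only genes is uncertain.

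Genes for later steps of the core were among the 20. GSTU20, a glutathione transferase, was the most abundant of the higher genes, with 525 RPKM in swi3b +/- and 292 RPKM in Col-0 in the authors' deposited table (1.80-fold), and GSTF11, of the same enzyme class, had 10.5 RPKM in swi3b +/- and 4.21 RPKM in Col-0. GGP1, which removes a glutamyl group, and UGT74B1, which adds glucose, were 1.72-fold and 1.69-fold higher there. The sulphotransferase genes SOT16, SOT17 and SOT18, which complete the core, were 2.30-fold, 2.097-fold and 1.80-fold higher in the deposited table, and SOT16 and SOT18 are neighbours. Of side chain genes, FMO GS-OX1, AOP2 and CYP81F4 were 2.37-fold, 2.14-fold and 1.73-fold higher in the deposited table. AOP2 is not annotated as protein-coding in RefSeq, so its RNA is not read here as that of an enzyme. APS1 and APK, which activate sulphate for the sulphotransferases, were 1.59-fold and 2.36-fold higher, and APS1 reached 209 RPKM in swi3b +/- against 132 RPKM in Col-0 in the deposited table.

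**Figure D4:**
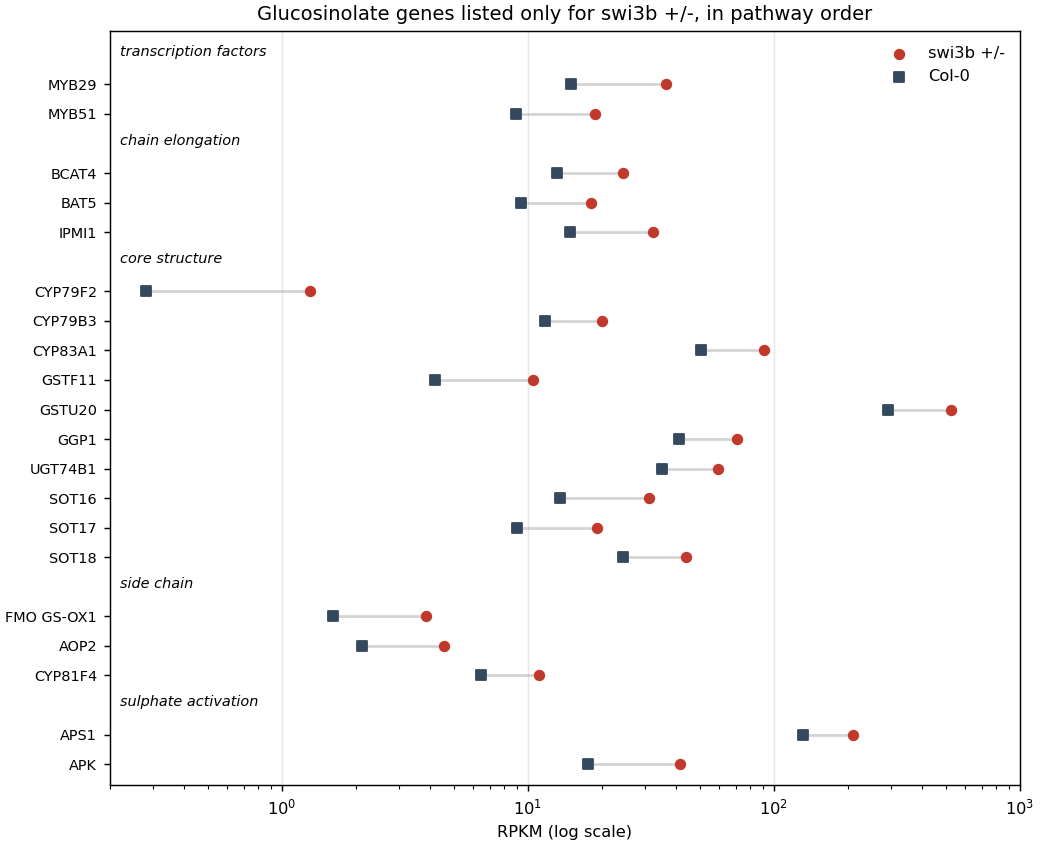
The 20 glucosinolate genes listed only for swi3b +/- are drawn in pathway order, with RPKM in swi3b +/- (red circle) and in Col-0 (dark square) on a log scale. Each lies higher in swi3b +/-, and levels run from 0.281 RPKM for CYP79F2 in Col-0 to 525 RPKM for GSTU20 in swi3b +/-.

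By annotated product, several enzyme families had higher members. For all features adjusted by the authors, 1.4% were listed only for swi3b +/-. Of 248 cytochrome P450 genes 9 (3.63%) and of 131 UDP-glycosyltransferase genes 7 (5.34%) were listed only for swi3b +/-. So were 3 of 56 glutathione S-transferase genes (5.36%), and all of these were higher. Of 971 protein kinase genes 13 (1.34%) were listed only there, 11 higher and 2 lower. Of 229 calcium-binding protein genes 10 (4.37%) were, 9 higher and 1 lower. The families were chosen after the values were seen. They were matched by the wording of the product, so members described otherwise are not counted. The glucosyltransferase gene DOGT1, also higher and listed only for swi3b +/-, was not matched. NIT1, a nitrilase, had 331 RPKM in swi3b +/- and 198 RPKM in Col-0 in the authors' deposited table, and its near-identical neighbours make the value uncertain. The nitrate reductase genes NIA2 and NIA1 had 208 and 42.4 RPKM in swi3b +/-, against 108 and 23.8 RPKM in Col-0 in the deposited table. BAM5, a beta-amylase, was 2.22-fold higher at 2.53 RPKM in swi3b +/- and 1.14 RPKM in Col-0 there. These 3 were the higher ones of 15 nitrogen and sugar genes, of which 7 were listed and 5 only for swi3b +/-.

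Several genes that were lower in swi3b +/- act in amino acid breakdown. Of 21 genes for amino acid breakdown, a list written after these values were seen, 13 were listed, all lower. Of these, 8 (38.1% of the 21) were listed only for swi3b +/- and 5 also for idn2-1. Among all features, 0.556% were listed as lower, and 1.4% were listed only for swi3b +/- in either direction. GDH2, a glutamate dehydrogenase, had 16.8 RPKM in swi3b +/- and 39.5 RPKM in Col-0 in the authors' deposited table (2.35-fold lower, q = 3.24e-07). A set of 3 genes for subunits of branched-chain keto acid dehydrogenase was lower: DIN4, an E1 beta subunit gene, had 30.8 RPKM in swi3b +/- and 66.6 RPKM in Col-0, the second E1 beta gene BCDH BETA1 had 8.97 RPKM in swi3b +/- and 14.8 RPKM in Col-0, and BCE2, the E2 subunit gene, had 15.7 RPKM in swi3b +/- and 29.5 RPKM in Col-0 in the deposited table. MCCB, a carboxylase subunit of leucine breakdown, was 1.59-fold lower and ALDH6B2, a dehydrogenase of valine breakdown, 1.66-fold lower there. THA1, a threonine aldolase, and POP2, the transaminase of gamma-aminobutyrate, were 2.07-fold and 1.62-fold lower in the deposited table.

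Some of the lower genes with high levels act on sugars and the cell wall. DIN10, a dark-induced gene of the raffinose synthase family, had 327 RPKM in swi3b +/- and 692 RPKM in Col-0 in the authors' deposited table (2.11-fold lower). STP1, a hexose transporter, had 206 RPKM in swi3b +/- and 352 RPKM in Col-0 there. Another dark-induced gene listed only for swi3b +/-, DIN11, which is outside the lists, was higher. Of 15 beta-galactosidase genes, which trim galactose from cell wall polymers, 3 were listed, all lower and only for swi3b +/-. That is 20% of the 15, against 1.4% of all features. BGAL4 had 10.9 RPKM in swi3b +/- and 24.8 RPKM in Col-0 in the deposited table. BGAL1 had 232 RPKM in swi3b +/- and 407 RPKM in Col-0 there. BGAL10 had 34.9 RPKM in swi3b +/- and 54.8 RPKM in Col-0 in the deposited table. The beta-xylosidase genes BXL2 and XYL4 were 1.82-fold and 1.74-fold lower, and the autophagy gene ATG8E 1.65-fold lower in the deposited table; these 3 were chosen after their values were seen.

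The most abundant gene of all was GASA1 (AT1G75750, chromosome 1, 28441526 to 28442429), a small cysteine-rich protein gene regulated by gibberellin. It had 565 RPKM in swi3b +/- and 1177 RPKM in Col-0 in the authors' deposited table (2.08-fold lower, q = 7.21e-05). AT5G22920, a RING and CHY zinc finger gene, had 269.9 RPKM in swi3b +/- and 504 RPKM in Col-0 there. Of 18 clock genes 5 were listed, and PRR5, a repressor of the morning genes of the clock, and FKF1, a blue light receptor that acts late in the day, only for swi3b +/-. PRR5 had 39.6 RPKM in swi3b +/- and 83.9 RPKM in Col-0, and FKF1 had 13.0 RPKM in swi3b +/- and 27.0 RPKM in Col-0 in the deposited table. The other 3 listed clock genes, CCA1, LNK1 and LNK2, were also listed for nrpe1. They were 3.02-fold, 2.40-fold and 1.74-fold higher in swi3b +/- there. MAF5, a flowering repressor related to FLC, was the only 1 of 11 flowering genes listed for swi3b +/-. It had 1.15 RPKM in swi3b +/- and 2.72 RPKM in Col-0 in the deposited table. Another of the 11, FD, was listed for nrpe1. The time of day of collection is not stated in the labels, and its part in the clock values was not tested.

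The other large falls at 5 RPKM or more were those of AT1G75490, an AP2/ERF-type factor gene (2.496-fold lower), the uncharacterised AT3G11690 (2.31-fold), AT4G37220, of the WCOR413 cold acclimation family (2.21-fold), and AT1G11520, a spliceosome-associated protein-like gene (2.14-fold), in the authors' deposited table. The steepest ratio of all lower genes was 7.32-fold, for the S-adenosylmethionine decarboxylase gene SAMDC (AT3G02470), but at 0.405 RPKM in swi3b +/- and 2.96 RPKM in Col-0 in the deposited table it lay below that level.

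**Figure D5:**
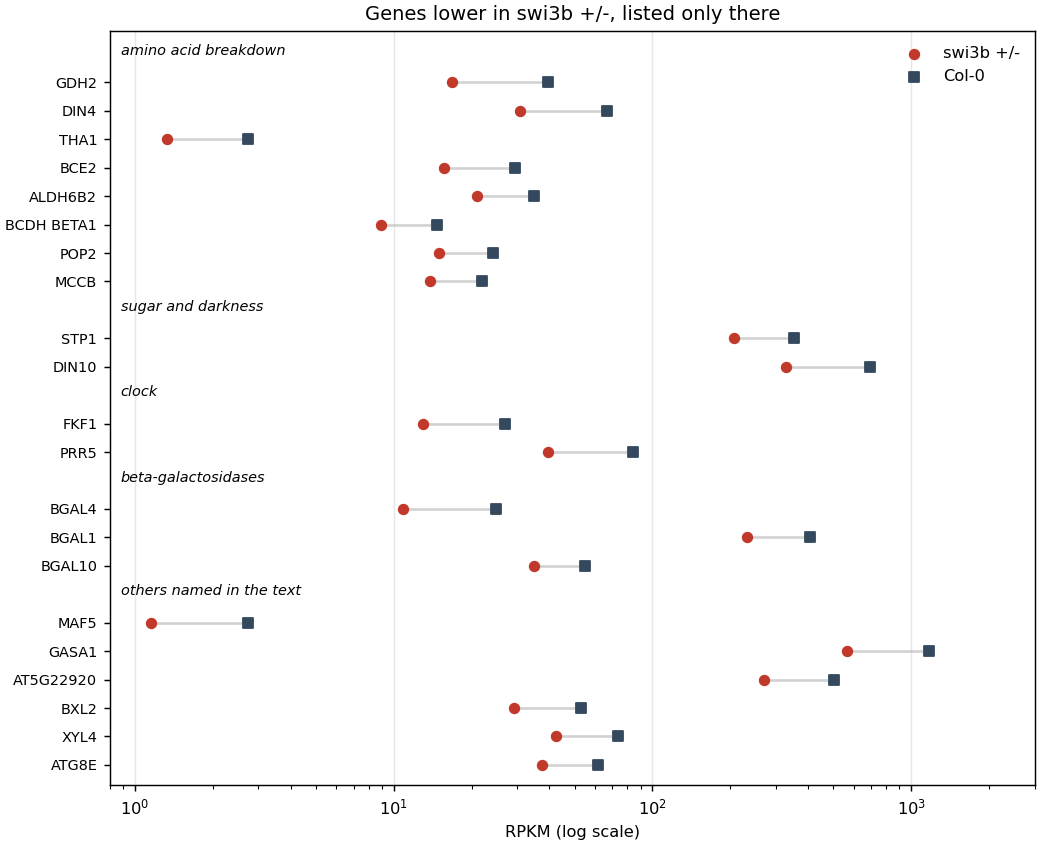
Genes listed only for swi3b +/- and lower there are grouped by role, with RPKM in swi3b +/- (red circle) and in Col-0 (dark square) on a log scale. The 21 genes range from 1.57-fold lower for BGAL10 to 2.36-fold lower for MAF5, and GASA1 is the highest in both genotypes.

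Features at 0 in one genotype have no ratio. AT3G44006, an uncharacterised short gene whose deposited locus is 180 bases long, had 122 RPKM in swi3b +/- and is listed at 0 in Col-0 in the authors' deposited table. AT1G07485 and the non-coding AT5G44562 had 3.91 and 3.32 RPKM in swi3b +/- and are listed at 0 in Col-0 there. In the other direction 12 features are listed at 0 in swi3b +/-, with between 0.791 and 1.59 RPKM in Col-0 in the deposited table. The highest of these was RLP50, a receptor-like protein gene, at 1.59 RPKM in Col-0, followed by AT5G56920, AT1G30140 and AT1G57835 at 1.18, 1.11 and 1.08 RPKM in Col-0 in the deposited table. The other genes were AT2G33720, AT3G61400, AT5G13825 and AT1G15680, each below 1 RPKM in Col-0. A value of 0 may be a failed estimate, and read counts were not used here.

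All 5 transposable elements were lower in swi3b +/-, at low levels. AT1TE22850 (chromosome 1, 7065494 to 7071562) had 0.194 RPKM in swi3b +/- and 0.917 RPKM in Col-0 in the authors' deposited table. AT1TE46650 (chromosome 1, 14208774 to 14212645), AT3TE59900 (chromosome 3, 14642121 to 14647067), AT3TE61385 (chromosome 3, 15062423 to 15064823) and AT4TE51020 (chromosome 4, 11122742 to 11123827) are listed at 0 in swi3b +/-, with 0.891, 0.866, 0.873 and 0.923 RPKM in Col-0 in the deposited table. The loci of the first 4 overlap annotated pseudogenes, and that of AT4TE51020 overlaps the protein-coding gene AT4G20735. By comparison, 2 of the 7 elements listed for swi3b +/- and another mutant were higher.

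In several pathway lists no gene was listed for swi3b +/- alone. Of 16 cell wall genes 6 were listed, all of them also for another mutant, and of 18 auxin genes and 18 gibberellin, brassinosteroid and cytokinin genes 1 each was listed, also elsewhere. Of 22 silencing genes and 11 SWI/SNF subunit genes, 0 were listed for swi3b +/-. In all, 52 swi3b-only genes belong to the 23 lists, 46 higher and 6 lower.

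Reads from overlapping genes could not be told apart. The deposited loci of 60 of the 361 features overlap another protein-coding gene, among them those of RRTF1, WRKY33, WRKY40, WRKY53, PUB23, ATAF2, GolS1, P5CS1, MPK3, BCAT4, GSTF11, CYP81F4, FMO GS-OX1, EBF2, DIN4, DIN10, FKF1, THA1, BCDH BETA1 and POP2. SPA3 and AT3G15350 are given the same locus, chromosome 3, 5166206 to 5172837, on opposite strands.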

How the data were processed

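RNA-seq covered 12 seedling samples in 4 genotypes, and the values come from 3 tables that the authors deposited, 1 per mutant against Col-0. Their columns, per the file headers, hold an ID, a locus, the RPKM of the mutant and of Col-0, the log2 ratio as deposited by the authors, and a p-value and q-value. Reads were handled with TopHat and Cufflinks on TAIR10, per the submitters' processing notes; versions are not given in those notes. Replicates stand in the deposited tables as 1 RPKM value per genotype, and neither the authors' way of computing p-values and q-values nor the strandedness is known from the sources used here. The tables hold 0 per-sample columns without a sample.

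A swi3b-only feature has an identifier in the swi3b +/- table and in neither other table. Log2 ratios were recomputed from RPKM without a pseudocount, and matched the deposited ones to within 1.09e-05. The authors' tables list q below 0.05. The number of features adjusted was recovered from the ratio of deposited q to p at each rank (Benjamini-Hochberg), a step tested on simulated data. Nothing was tested anew, since the deposited tables hold no replicate values. The nrpe1 comparison uses the same Col-0 values, so the tables are not independent.

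Loci are TAIR10, 1-based. Names, products, exons and promoters came from RefSeq TAIR10.1, whose chromosomes have the same lengths; all 356 genes matched. Motif positions count back from the annotated start, with the last base before it as 1. A further promoter stretch is not reported here.

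Named genes are the 14 largest rises and 10 largest falls of at least 5 RPKM, at most 8 per list of 23 lists (376 genes; SWP73B, ERF017, ZAT5 and ZAT18 were left out because name and identifier disagreed, as was UGT74C1 from a later list), the 5 highest levels in each genotype, every element and every feature at 0. The set of features and the lists were chosen with earlier results of these data known. Lists of glucosinolate steps, amino acid breakdown and beta-galactosidases, the product families and neighbouring genes were chosen after the values were seen. Alternatives covered the q limit, fold, level, locus, gene class and pseudocount. Python 3.11.15, pandas 2.3.3, numpy 2.4.6 and matplotlib 3.10.9 were used.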

Additional observations from a re-analysis of the deposited data

How the results depend on the processing

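No paired analysis was possible because the deposited tables hold 1 value per genotype; for the same reason no replicate could be left out. The count of 278 higher genes was 179 at q below 0.01, 68 with Bonferroni adjustment and 151 at 2-fold or more; that of 78 lower genes was 37, 10 and 24 under the same settings. With only changes at least as large as the smallest in the idn2-1 table, a setting chosen after seeing the data, 184 higher and 34 lower genes were left; each of these settings drops features by its construction. The median log2 ratio was 1.05 for higher and -0.89 for lower features, 0.87 and -0.81 with 1 RPKM added, and 1.03 and -0.91 with 0.1 RPKM added. A level of at least 5 RPKM, absence judged by locus, protein-coding genes alone and, added after seeing the data, loci free of other coding genes kept both counts within 1.5 times. For the 5 motifs, all 20 proportions of higher and lower genes under other windows lay inside the 95% binomial interval of the first. The other settings use part of the same bases or part of the same genes. That result was therefore largely set by construction, and no conclusion is drawn from it. Depth is unknown, and the smallest listed change was 1.55-fold, so nothing is known here of smaller ones.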

Other observations

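Further genes listed only for swi3b +/- and belonging to no list above were chosen after their values were seen, and no group of them was tested. Among light-related genes, the photoprotection gene ELIP1 had 3.52 RPKM in swi3b +/- and 1.06 RPKM in Col-0, BBX16 had 16.4 RPKM in swi3b +/- and 6.06 RPKM in Col-0, and COL2, of the CONSTANS-like family, had 8.75 RPKM in swi3b +/- and 4.13 RPKM in Col-0 in the authors' deposited table. For the cuticle, MYB96, an activator of wax synthesis, was 2.04-fold higher and the wax ester synthase gene WSD1 2.98-fold higher in the authors' deposited table. F3H, an early enzyme of flavonoid synthesis, had 7.93 RPKM in swi3b +/- and 3.76 RPKM in Col-0 there. NAS1, which makes the metal chelator nicotianamine, was 3.92-fold higher, but at under 5 RPKM in both genotypes. GRX480, a glutaredoxin induced by salicylic acid, had 39.7 RPKM in swi3b +/- and 15.1 RPKM in Col-0 in the authors' deposited table. CLH1, a chlorophyllase, had 30.3 RPKM in swi3b +/- and 12.2 RPKM in Col-0, and UCP5, a mitochondrial carrier, had 31.2 RPKM in swi3b +/- and 11.6 RPKM in Col-0 in the authors' deposited table. On the lower side, SAUR15, an auxin-responsive gene, was 1.99-fold lower, the cell wall genes COB and LRX3 were 1.59-fold and 1.69-fold lower, and SOS3, a calcium sensor of salt tolerance, was 2.06-fold lower in the authors' deposited table. The features were spread over the genome, with 29.1% on chromosome 1, 14.7% on chromosome 2, 20.2% on chromosome 3, 13.9% on chromosome 4 and 22.2% on chromosome 5, against 26.1%, 15.7%, 19.9%, 15.2% and 23.1% of all protein-coding genes.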
